A study of Mus musculus x Mus spretus with 8 samples.

Results

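Iron handling was followed through 10 genes of the 49670 in the count table, matched by Ensembl ID to the symbols Lcn2, Steap4, Steap1, Steap2, Steap3, Tfrc, Slc40a1, Slc11a2, Fth1 and Ftl1. The list was chosen by the measured CPM of Lcn2 and Steap4, which were known to be higher in the knockout libraries than in WT. Their differences in CPM from wild type are therefore given as a description, without a test. The other 8 are relatives of Steap4 or genes of iron uptake, export and storage. All 10 passed the filter on low counts, which kept 17839 genes.

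RNA was sequenced from Patski cells, a female mouse line, labelled as fibroblasts, whose labels give the parental strains C57BL/6 and SPRET/EiJ, in 4 groups of 2 libraries. The groups were lines labelled stc1 -/-, pygo1 -/- and rlim -/- (Stc1-KO, Pygo1-KO and Rlim-KO here) and wild type (WT), all grown in DMEM with 10% serum. The series describes the knockouts of each gene as independent mutants, so the 2 libraries of a label were taken as 2 lines. Whether each pair is 2 lines was not tested. In Slc40a1 the Rlim-KO pair differed 1.02-fold and the WT pair 1.06-fold, against 3.77-fold in Stc1-KO and 1.38-fold in Pygo1-KO. In Lcn2 no pair differed by more than 1.24-fold. The sources used here do not describe the origin of the WT pair, so the p-values speak of variation among these libraries, which may be technical. The same holds for a knockout pair if its libraries share a line. Reads that cover a base at which the parents differ were assigned by the authors to genome 1 or genome 2, but which parental strain stands behind which number is unstated.

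Total counts ran from 73128996 to 81500061 per library, of which 50.64 to 52.64% carried a genome. The RNA of the targeted gene was not clearly lower under its own label: Stc1 had 3.67 and 68.4 CPM, a gene's count scaled to the size of its library with TMM factors, in Stc1-KO against 3.84 and 3.15 in WT. Pygo1 had 2.5 and 0.674 CPM in Pygo1-KO against 2.49 and 2.44 in WT. Rlim had 71.9 and 64.2 CPM in Rlim-KO against 57.2 and 51.4 in WT. Each group below is therefore the libraries so labelled, and every direction is a direction for them. Of 10 fibroblast markers, 5 stayed under 1 CPM in every library of each group, among them Col1a2, Col3a1, Thy1 and Lum. Vim was abundant, and so were the kidney epithelial genes Cdh16, Pax2 and Pax8, but 2 of 10 kidney markers stayed under 1 CPM in every library. Of these markers, Cldn2, a claudin of leaky epithelia, fell to 26.1 and 22.5 CPM in Stc1-KO, 51.4 and 53.6 in Pygo1-KO and 23.5 and 22.5 in Rlim-KO, against 133 and 132 in WT (edgeR, adjusted p = 0.00114, 0.0059 and 8.43e-04). Cdh1, which encodes E-cadherin, fell to 0.201 and 0.344 CPM in Pygo1-KO and 0.498 and 0.514 in Rlim-KO, against 9.52 and 8.91 in WT (edgeR, adjusted p = 0.0161 and 0.0298). Over all genes 0.577% were called in Stc1-KO, 2.35% in Pygo1-KO and 1.4% in Rlim-KO. A fit of Stc1-KO and WT alone called 0 genes, so the Stc1-KO call of Cldn2 ended there. How the Cldn2 and Cdh1 calls fared with a library left out is not given here. Cdh16, which encodes the kidney cadherin, had 2150 and 2360 CPM in Stc1-KO, 1220 and 1580 in Pygo1-KO, 1540 and 1620 in Rlim-KO, and 1780 and 1890 in WT. These collagen, Thy1 and Lum levels thus do not match the fibroblast label, but not all fibroblast markers were low. The 10 summed to 1130 to 1460 CPM in Stc1-KO, 1130 to 1490 in Pygo1-KO, 1040 to 1080 in Rlim-KO and 1230 to 1250 in WT. Of 7 tested, 0 were called by edgeR, at a median log2 difference of 0.81 in Stc1-KO, 1.66 in Pygo1-KO and 0.65 in Rlim-KO. The 7 include genes under 1 CPM in every library, so these medians rest partly on low counts. The part of cell identity in the results was not tested.

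Cells take up iron mainly as transferrin bound to the transferrin receptor, encoded by Tfrc. In the endosome, STEAP metalloreductases reduce the released iron, and the transporter DMT1, encoded by Slc11a2, moves it into the cytosol. Ferritin, built of the heavy and light chains encoded by Fth1 and Ftl1, stores it, and ferroportin, encoded by Slc40a1, exports it. Iron regulatory proteins bind hairpins called iron-responsive elements in these messages when iron is scarce, which blocks translation of ferritin and ferroportin and protects the transferrin receptor message from decay. Lcn2 encodes lipocalin 2, a secreted protein that binds bacterial siderophores, and is induced in inflammation and in injured kidney tubules. Steap4 encodes a family member that is also induced by inflammatory cytokines.

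The iron-responsive elements of the members are shown because the proteins made from these messages are known to be set after transcription too, which RNA counts do not show. A pattern was searched in the annotated UTRs: an unpaired C, then 5 bases, the loop CAGTGN and the 5 bases that pair with those before the loop, with G-T pairs allowed. Capitals mark the 6-base loop, and sequences are from GENCODE M21 transcripts on GRCm38, 5′ to 3′ on the gene's own strand.
Fth1, 5′ UTR, chr19:9982733-9982759, plus strand: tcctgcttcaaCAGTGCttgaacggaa
Ftl1, 5′ UTR, chr7:45459780-45459806, minus strand: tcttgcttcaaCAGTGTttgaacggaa
Slc40a1, 5′ UTR, chr1:45925466-45925492, minus strand: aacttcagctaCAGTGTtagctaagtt
Tfrc, 3′ UTR, chr16:32631220-32631246, plus strand: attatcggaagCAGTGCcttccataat
Tfrc, 3′ UTR, chr16:32631599-32631625, plus strand: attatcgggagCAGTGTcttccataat
Tfrc, 3′ UTR, chr16:32631664-32631690, plus strand: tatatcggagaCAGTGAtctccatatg
Tfrc, 3′ UTR, chr16:32631711-32631737, plus strand: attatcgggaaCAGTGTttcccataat

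The pattern was found in the 5′ UTR of 3 of the 10 members and in the 3′ UTR of 1. Over all genes with an annotated UTR it was found in 31 of 20899 5′ UTRs (0.148%) and in 129 of 21028 3′ UTRs (0.613%). Lcn2, Steap4, the other STEAP genes and Slc11a2 had no match in these windows, although a form of the Slc11a2 message is known to carry such an element in its 3′ UTR. A match is a run of letters and not evidence of binding, and the counts here measure RNA and not protein.

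Lcn2 and Steap4 were higher than WT under all 3 labels, by far more than their libraries differed within a pair. Lcn2 (ENSMUSG00000026822, chr2:32384633-32388252, minus strand) had 265 and 269 CPM in Stc1-KO, 1140 and 913 in Pygo1-KO, 1070 and 1100 in Rlim-KO, and 61.5 and 62.1 in WT. All 6 knockout libraries stood above both WT libraries, and the Stc1-KO pair stood between WT and the others. The fitted fold was 4.32 in Stc1-KO (log2 2.11 ± 0.13), 16.6 in Pygo1-KO (4.05 ± 0.13) and 17.6 in Rlim-KO (4.14 ± 0.13; SE, n = 2 a group).

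Steap4 (ENSMUSG00000012428, chr5:7960457-7982213, plus strand) was nearly absent in WT. It had 19 and 23.8 CPM in Stc1-KO, 66 and 24.8 in Pygo1-KO, 48.3 and 43.1 in Rlim-KO, and 0.716 and 0.777 in WT. No knockout library came near the WT level, while the Pygo1-KO pair differed 2.66-fold within itself. The fitted fold was 28.6 in Stc1-KO (log2 4.84 ± 0.44), 60.7 in Pygo1-KO (5.92 ± 0.44) and 61.1 in Rlim-KO (5.93 ± 0.44; SE, n = 2 a group).

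**Figure D1:**
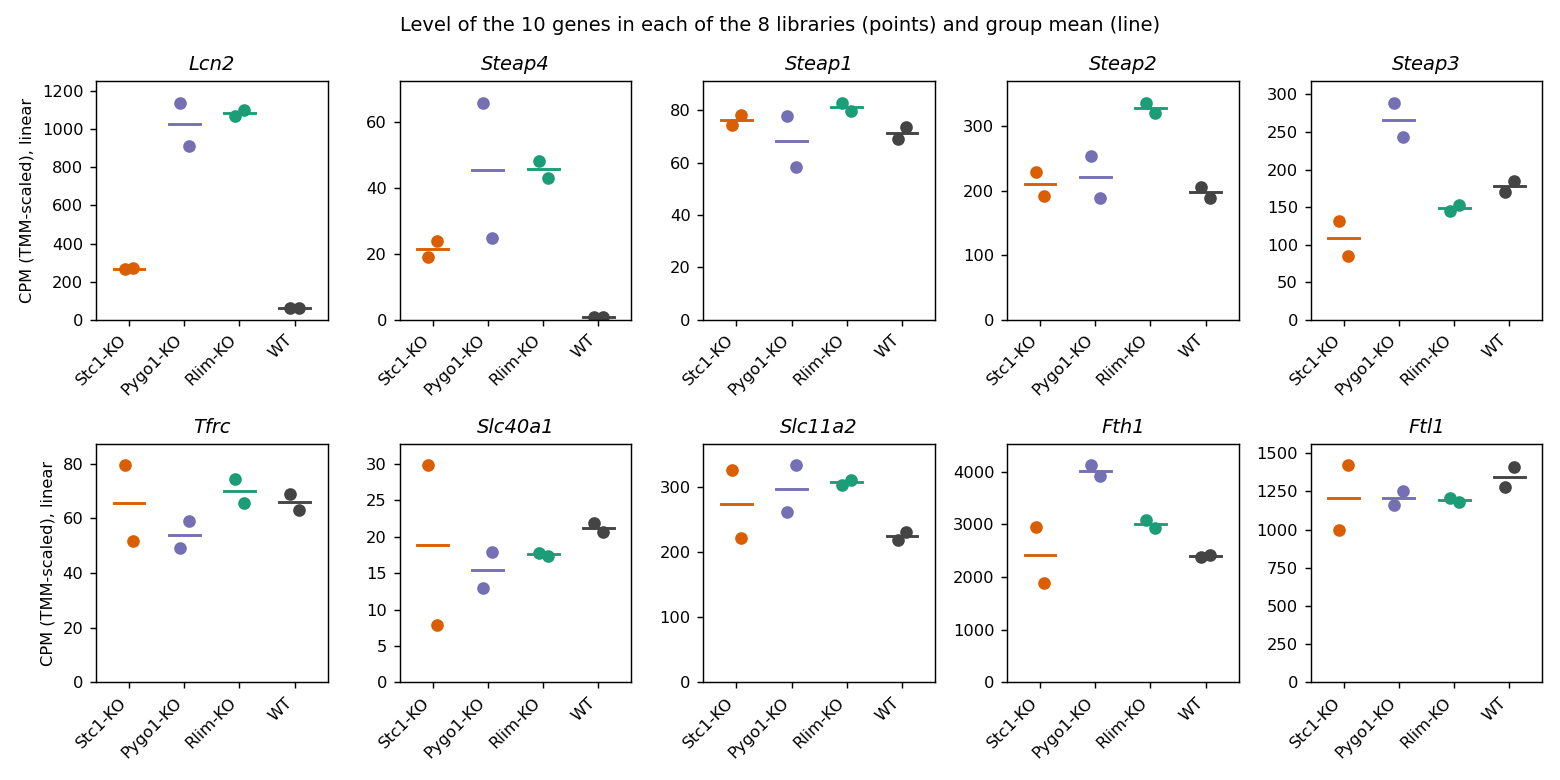
Each panel shows a gene's level in CPM (linear axis from 0) in the Stc1-KO, Pygo1-KO, Rlim-KO and WT libraries, with 1 point per library and a line at the mean of the 2. Lcn2 lies at 61.5 and 62.1 CPM in WT and at 265 CPM or more in every knockout library, Steap4 lies under 1 CPM in WT alone, and the Stc1-KO points of Slc40a1, Fth1 and Tfrc are far apart.

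The knockout labels differed among themselves in Lcn2. Lcn2 and Steap4 chose the list by their level in these same libraries, so their p-values between labels carry that choice. Lcn2 was 3.83-fold higher in Pygo1-KO than in Stc1-KO (log2 1.94 ± 0.13, SE; edgeR quasi-likelihood test with Benjamini-Hochberg adjustment over all genes, adjusted p = 0.00439), where 1.74% of all genes were called. It was 4.07-fold lower in Stc1-KO than in Rlim-KO (log2 -2.03 ± 0.13; edgeR, adjusted p = 0.0087; background 0.381%). Between Pygo1-KO and Rlim-KO, where 1.02% of genes were called, Lcn2 was not (log2 -0.09, 95% interval -0.41 to 0.23; edgeR, adjusted p = 0.804). The first call was kept with each library left out, but ended with the 2 labels fitted alone (edgeR, adjusted p = 0.285). The Stc1-KO and Rlim-KO call ended without WT replicate 1 or 2 (edgeR, adjusted p = 0.0574 and 0.0572), without Rlim-KO replicate 1 or 2 (0.14 and 0.158), as it did in a fit of the 2 labels alone (0.0624).

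Steap4 differences between labels were not called. The log2 difference was 1.09 for Pygo1-KO against Stc1-KO (95% interval 0.14 to 2.03; edgeR, adjusted p = 0.233) and -1.10 for Stc1-KO against Rlim-KO (-2.04 to -0.15; edgeR, adjusted p = 0.281). For Pygo1-KO against Rlim-KO it was -0.01 (-0.95 to 0.93; edgeR, adjusted p = 0.994). The Pygo1-KO pair decides the first value: it was 0.22 without Pygo1-KO replicate 1, and 1.63 without Pygo1-KO replicate 2 (edgeR, adjusted p = 0.0293). Without the same libraries, the value against Rlim-KO was -0.88 and 0.53.

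Neutrophils store lipocalin 2, so their markers were read beside it. Of 11 neutrophil markers, 9 stayed under 1 CPM in every library of each group, and S100a9 and Camp were at 0 in all 8 libraries. The summed level of the list was 1.14 to 1.33 CPM in Stc1-KO, 4.93 to 8.27 in Pygo1-KO, 2.24 to 2.69 in Rlim-KO and 2.42 to 2.83 in WT. Of 10 macrophage markers, 7 stayed under 1 CPM throughout, and the sums were 96.2 to 113 CPM in Stc1-KO, 87.6 to 113 in Pygo1-KO, 85.3 in both Rlim-KO libraries and 104 to 111 in WT, carried by Csf1r and Cd14. Of these markers, Cd68 rose in Pygo1-KO, to 7.61 and 6.52 CPM against 1.81 and 2.39 in WT (edgeR, adjusted p = 0.0169). Ltf, a neutrophil granule gene, fell in Stc1-KO, to 0.097 and 0.186 CPM against 1.45 and 1.77 in WT (edgeR, adjusted p = 0.0368). These are low levels, and a fit of Stc1-KO and WT alone called 0 genes, so the Ltf call ended there. Over all genes 0.577% were called in Stc1-KO and 2.35% in Pygo1-KO. How the Cd68 and Ltf calls fared with a library left out is not given here. The part of other cell types in the results was not tested.

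The split of reads by genome showed that the higher Lcn2 level came from genome 2 alone in Stc1-KO and Pygo1-KO and from both copies in Rlim-KO. In Stc1-KO genome 2 gave 183 and 188 CPM and genome 1 gave 0.554 and 0.346. In Pygo1-KO genome 2 gave 793 and 640 and genome 1 gave 1.01 and 0.922. In Rlim-KO genome 2 gave 494 and 512 and genome 1 gave 246 and 258. In WT genome 2 gave 37.3 and 37.6 and genome 1 gave 5.51 and 5.79. Against WT, the genome 2 copy was thus 4.95-fold higher in Stc1-KO, 19.1-fold in Pygo1-KO and 13.4-fold in Rlim-KO. The genome 1 reads were 12.6-fold lower in CPM in Stc1-KO and 5.86-fold lower in Pygo1-KO, but 44.6-fold higher in Rlim-KO. In Stc1-KO they were 40 and 26 reads and in Pygo1-KO 80 and 67, too few beside genome 2 to tell from wrongly assigned reads. The folds of genome 1 in Stc1-KO and Pygo1-KO are thus uncertain as a measure of that copy. The genes around Lcn2 had low genome 1 shares there too, as given below. Pygo1-KO and Rlim-KO, which had similar totals, therefore reached them with a different share from each copy.

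The genome 1 share of Lcn2 was 0.302 and 0.184% in Stc1-KO, 0.127 and 0.144% in Pygo1-KO, 33.2 and 33.6% in Rlim-KO, and 12.9 and 13.3% in WT. In the first Stc1-KO library the 95% Wilson interval was 0.222 to 0.411%, from 40 reads of genome 1 beside 13213 of genome 2, and intervals here cover counting error only. The size of the Stc1-KO and Pygo1-KO odds below thus rests on few genome 1 reads. Lcn2 was chosen for its level in these same libraries, so the p-values of its share carry that choice. The log2 odds of genome 1 differed from WT by -5.98 ± 0.25 in Stc1-KO (edgeR, adjusted p = 9.35e-04), where 5.54% of 12476 genes were called. They differed by -6.80 ± 0.24 in Pygo1-KO (edgeR, adjusted p = 6.52e-05; background 20%) and by 1.73 ± 0.24 in Rlim-KO (edgeR, adjusted p = 0.0157; background 11.9%). The first 2 calls were kept with each library left out. The Rlim-KO call ended without WT replicate 1 or 2 (edgeR, adjusted p = 0.142 and 0.133) and without Rlim-KO replicate 1 or 2 (0.121 and 0.128).

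The genes around Lcn2 had shifted shares too. Over the 5 nearest protein-coding genes on each side, which span 0.292 Mb, the median genome 1 share was 0.114 and 0.108% in Stc1-KO, 0.107 and 0.082% in Pygo1-KO, 23.8 and 22.3% in Rlim-KO, and 4.49 and 4.74% in WT. Ciz1, which lies 32.3 kb away and encodes a nuclear matrix protein, had 0.11 and 0% in Stc1-KO, 0.0795 and 0.0874% in Pygo1-KO, 27.8 and 27.5% in Rlim-KO and 6.9 and 6.39% in WT. Of the 10 neighbours, Fam102a kept the highest genome 1 share in Stc1-KO and Pygo1-KO, at 6.72 and 5.93% in Stc1-KO, 5.27 and 6.15% in Pygo1-KO, 40.5 and 34.7% in Rlim-KO, and 12.3 and 13.4% in WT. Shares were shifted farther away too. A gene 3.92 Mb before Lcn2 had 0.03 and 0.10% in Stc1-KO, 27.31 and 21.72% in Rlim-KO and 4.65 and 4.52% in WT. One 3.75 Mb after it had 0.15 and 0.25%, 23.83 and 29.78%, and 5.25 and 5.53%. Not every gene between moved: one 2.56 Mb before Lcn2 had 82.77 and 83.59% in Rlim-KO and 83.23 and 77.20% in WT. Whether this change of the region plays a part in the Lcn2 level was not tested. With each chromosome scaled to WT, Lcn2 kept its direction under all 3 labels. The chromosome 2 median log2 difference was -0.03 in Stc1-KO, 0.00 in Pygo1-KO and 0.07 in Rlim-KO, so this scaling could hardly change it. The scaling also acts on total counts, so it does not bear on the region's genome shares. Over all scalings, filters and tools tried the Lcn2 log2 difference stayed between 2.09 and 2.16 in Stc1-KO, 4.04 and 4.1 in Pygo1-KO and 4.07 and 4.19 in Rlim-KO.

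**Figure D2:**
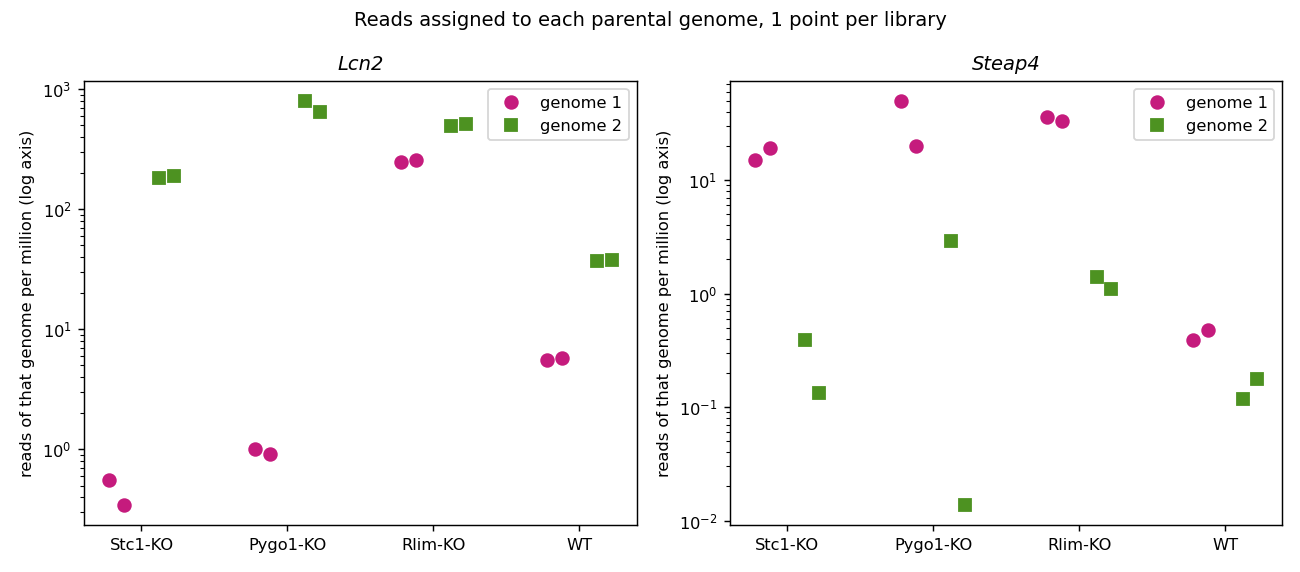
Reads of Lcn2 and Steap4 assigned to genome 1 (circles) and genome 2 (squares), in CPM on a log axis, with 1 point per library, for Stc1-KO, Pygo1-KO, Rlim-KO and WT. The Lcn2 points of genome 1 lie at or under 1.01 in Stc1-KO and Pygo1-KO and at 246 and 258 in Rlim-KO, against 5.51 and 5.79 in WT.

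Steap4 was higher mainly on the other genome. Genome 1 gave 1080 and 1424 reads in Stc1-KO, 3922 and 1443 in Pygo1-KO, 2752 and 2552 in Rlim-KO, and 30 and 38 in WT. Genome 2 gave 28 and 10 reads in Stc1-KO, 229 and 1 in Pygo1-KO, 107 and 85 in Rlim-KO, and 9 and 14 in WT. Of the Steap4 gain in CPM, genome 1 held 99.3% in Stc1-KO, 96.3% in Pygo1-KO and 96.9% in Rlim-KO.

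The Steap4 genome 1 share was 97.5 and 99.3% in Stc1-KO, 94.5 and 99.9% in Pygo1-KO, 96.3 and 96.8% in Rlim-KO, and 76.9 and 73.1% in WT. The WT shares rest on 39 and 52 reads, with 95% Wilson intervals of 61.7 to 87.4% and 59.7 to 83.2%. Steap4 too was chosen for its level in these libraries, so the p-values of its share carry that choice. All 6 knockout libraries lay above both WT libraries, but no difference in odds was called (log2 4.55 ± 1.69, 4.43 ± 1.66 and 3.23 ± 1.63 in Stc1-KO, Pygo1-KO and Rlim-KO; edgeR, adjusted p = 0.311, 0.176 and 0.355). Without Pygo1-KO replicate 2, which had 1 genome 2 read, they were 4.47, 2.54 and 3.23 (edgeR, adjusted p = 0.0168, 0.0437 and 0.0218). Without Pygo1-KO replicate 1 they were 4.47, 8.77 and 3.23 (edgeR, adjusted p = 0.0163, 0.00191 and 0.0216). Fitted with WT only, the Stc1-KO and Rlim-KO values passed too (edgeR, adjusted p = 0.0483 and 1.64e-07).

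The 10 neighbours of Steap4, chosen in the same way, were spread over 4.16 Mb, a stretch that also holds the members Steap1 and Steap2. These neighbours had median genome 1 shares of 84.1 and 78.9% in Stc1-KO, 84.7 and 100% in Pygo1-KO, 84.6 and 85.7% in Rlim-KO, and 80.2 and 79.8% in WT. Pygo1-KO replicate 2 thus had almost no genome 2 reads across this stretch. In the other knockout libraries Steap4 stood above its neighbours' median, and in both WT libraries below it.

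**Figure D3:**
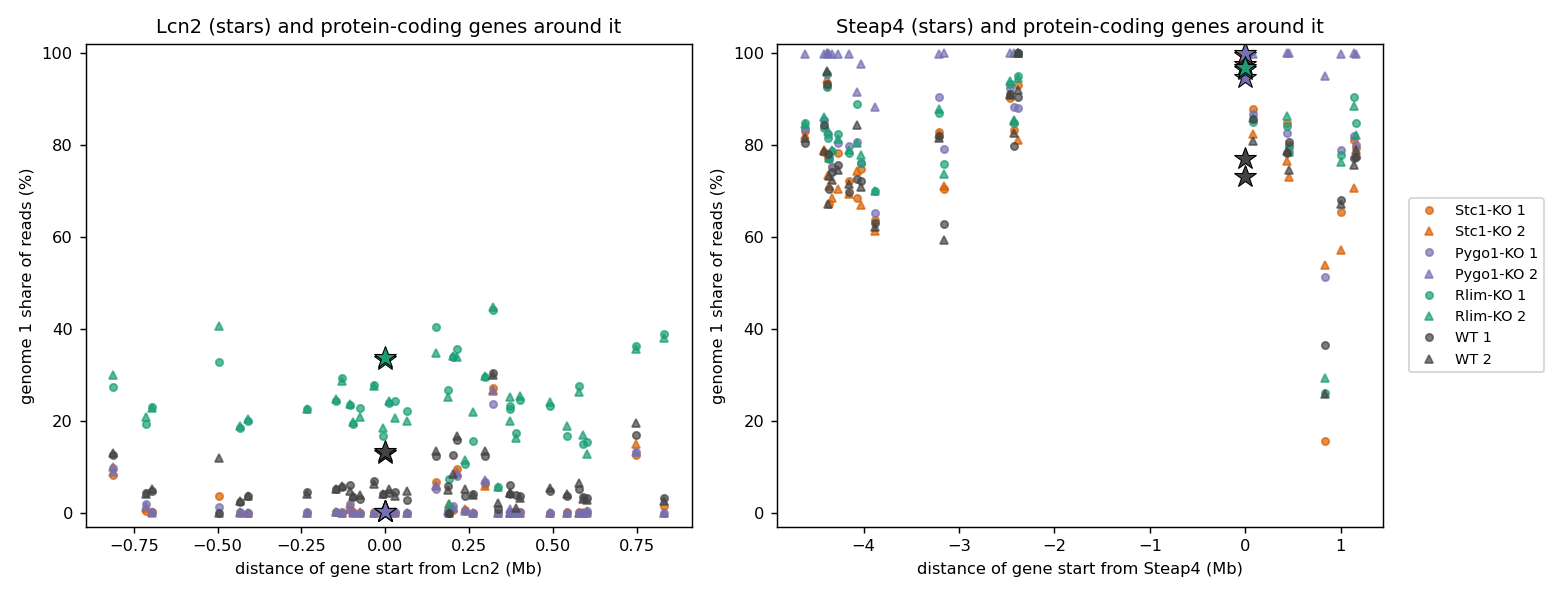
Genome 1 share of reads (percent) of protein-coding genes around Lcn2 (left) and Steap4 (right), against the distance of their start from that of the named gene in Mb, with colours for the groups and symbols for the libraries. Stars are Lcn2 and Steap4 themselves: for Lcn2 the stars of Rlim-KO lie at 33.2 and 33.6%, and for Steap4 the WT stars, at 76.9 and 73.1%, lie below those of all knockout libraries.

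The other STEAP genes did not share the Steap4 pattern of a near absence in WT. Per length, as RPKM (CPM per kilobase of exon), Steap1 averaged 55.5 in Stc1-KO, 49.5 in Pygo1-KO, 59.1 in Rlim-KO and 51.9 in WT, while Steap4 averaged 6.78, 14.4, 14.5 and 0.237 RPKM in the same groups. Even at its highest, Steap4 thus stayed below Steap1 per length, by RPKM of 20.9 against 56.6 in the first Pygo1-KO library. Lcn2 and Steap4 chose the list, so calls were counted over the 8 others. Of these 8, 0 were called by edgeR under any label, where 0.577% of all genes were called in Stc1-KO, 2.35% in Pygo1-KO and 1.4% in Rlim-KO. An unadjusted p under 0.05 was found for 1, 2 and 1 of the 8, but the share of all genes under that limit is not given here. The median log2 difference of the 8 was 0.00, 0.05 and 0.14, against 0.01, 0.00 and 0.01 over all genes. DESeq2 called 0, 1 and 1 of the 8, namely Fth1 in Pygo1-KO and Steap2 in Rlim-KO, and 4.59, 8.99 and 7.23% of all genes. With the compared groups alone, edgeR called 0, 2 and 7 of the 8, and 0, 9.97 and 48.9% of all genes. Without Stc1-KO replicate 1 it called 3, 2 and 3 of the 8, and 24, 19.7 and 16.3% of all genes. Without Stc1-KO replicate 2 it called 0, 2 and 3 of the 8, and 6.51, 19.8 and 16.3% of all genes.

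Steap1 (chr5:5736317-5749326, minus strand), a STEAP protein of the plasma membrane, had 74.5 and 78.2 CPM in Stc1-KO, 78 and 58.4 in Pygo1-KO, 82.9 and 79.9 in Rlim-KO, and 69.2 and 73.8 in WT. The Pygo1-KO pair spanned the WT pair. Steap2 (chr5:5664829-5694578, minus strand), a metalloreductase next to Steap1, had 228 and 191 CPM in Stc1-KO, 254 and 188 in Pygo1-KO, 336 and 320 in Rlim-KO, and 206 and 188 in WT. The Rlim-KO libraries stood above all others, by 1.66-fold over WT (log2 0.74 ± 0.17; edgeR, adjusted p = 0.092). That value passed by DESeq2 (adjusted p = 0.00936) and without Stc1-KO replicate 1 or 2 (edgeR, adjusted p = 0.0185 and 0.0184), as it did in a fit of the compared groups only (1.41e-32). On genome 1 Steap2 was 1.7-fold higher in Rlim-KO and on genome 2 1.6-fold.

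Steap3 (chr1:120190757-120272705, minus strand), the endosomal ferrireductase of red cell precursors, lay on opposite sides of WT in Pygo1-KO and in the other 2 labels, without a call against WT. It had 132 and 84.8 CPM in Stc1-KO, 289 and 243 in Pygo1-KO, 145 and 153 in Rlim-KO, and 170 and 185 in WT. Both Pygo1-KO libraries lay above both WT libraries, and all Stc1-KO and Rlim-KO libraries below them. Against WT the log2 difference was -0.71 ± 0.21 in Stc1-KO, 0.58 ± 0.21 in Pygo1-KO and -0.26 ± 0.21 in Rlim-KO (edgeR, adjusted p = 0.194, 0.191 and 0.578). Without Stc1-KO replicate 1 or 2 the Pygo1-KO value passed (edgeR, adjusted p = 0.0134 and 0.0133), as it did in a fit of the compared groups only (0.0437), and without Stc1-KO replicate 1 the Stc1-KO value was -1.08 (adjusted p = 0.00288).

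Between labels, Steap3 was 2.45-fold higher in Pygo1-KO than in Stc1-KO (log2 1.29 ± 0.21; edgeR, adjusted p = 0.0423). The call ended without WT replicate 1 or 2 (edgeR, adjusted p = 0.14 for both), Pygo1-KO replicate 1 or 2 (0.119 and 0.0895) or Rlim-KO replicate 1 or 2 (0.13 and 0.131), and with the 2 labels alone (0.457). Both copies of Steap3 took part, with means of 69.7 CPM in Pygo1-KO and 22.2 in Stc1-KO on genome 1, and 118 and 54.7 on genome 2. Against WT, Steap3 in Pygo1-KO was 1.72-fold higher on genome 1 and 1.38-fold on genome 2, without a call on its total. Its genome 1 share lay between 25.6 and 38.8% over the 8 libraries, and none of its odds differences was called. The neighbours' median share was far higher in every library, from 66.3 to 78.3%.

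Of the uptake genes, Tfrc (chr16:32608920-32632794, plus strand) had 79.4 and 51.6 CPM in Stc1-KO, 49 and 59.1 in Pygo1-KO, 74.5 and 65.5 in Rlim-KO, and 69.1 and 63 in WT. Its log2 difference was -0.01, -0.29 and 0.08 in Stc1-KO, Pygo1-KO and Rlim-KO (edgeR, adjusted p = 0.988, 0.492 and 0.88), with 95% intervals of -0.52 to 0.50, -0.79 to 0.22 and -0.42 to 0.59. The Stc1-KO value was 0.09 with each chromosome scaled to WT and 0.04 with upper quartile scaling. No difference of this message, which carries 4 matches to the pattern, was thus larger than the spread.

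The Tfrc genome 1 share fell to 41.9 and 40.3% in Pygo1-KO, against 55 and 59.3% in WT (log2 odds -0.94 ± 0.16; edgeR, adjusted p = 0.0127). The median share of its 10 neighbours was 42.9 and 40.2% in Pygo1-KO against 55.6 and 57.2% in WT, close to that of Tfrc in each of these libraries. The call ended without WT replicate 1 or 2 (edgeR, adjusted p = 0.0561 and 0.0996), as it did in a fit of the compared groups only (0.0607).

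Slc11a2 (chr15:100387898-100425072, minus strand) had 326 and 222 CPM in Stc1-KO, 261 and 333 in Pygo1-KO, 303 and 311 in Rlim-KO, and 218 and 231 in WT. Its log2 difference was 0.29, 0.41 and 0.45 in Stc1-KO, Pygo1-KO and Rlim-KO, each ± 0.20 (edgeR, adjusted p = 0.528, 0.312 and 0.306). The Rlim-KO value passed without Stc1-KO replicate 1 or 2 (edgeR, adjusted p = 0.0495 and 0.0496) and in a fit of the compared groups only (8.06e-13). It overlaps Gm5475 on the opposite strand, and since no source used here states the strand setting, reads of the pair cannot be told apart. Its genome 1 share was 14.9 and 35.3% in Stc1-KO, 31.8 and 26.5% in Pygo1-KO, 13.9 and 13.7% in Rlim-KO, and 17.2 and 18.2% in WT. The neighbours' median moved with it, at 28.4 and 51.2% in Stc1-KO, 48.4 and 40.9% in Pygo1-KO, 24.3 and 24.1% in Rlim-KO, and 32.4 and 31.1% in WT.

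The export gene Slc40a1 (chr1:45908068-45926523, minus strand) was the lowest of the 8 by CPM. It had 29.8 and 7.91 CPM in Stc1-KO, 13 and 17.9 in Pygo1-KO, 17.8 and 17.4 in Rlim-KO, and 21.9 and 20.6 in WT. The Stc1-KO libraries differed 3.77-fold and lay on both sides of WT. All 4 Pygo1-KO and Rlim-KO libraries lay below both WT libraries, but the log2 differences of -0.18 ± 0.52, -0.46 ± 0.53 and -0.28 ± 0.52 in Stc1-KO, Pygo1-KO and Rlim-KO were within the error (edgeR, adjusted p = 0.902, 0.662 and 0.834). The Stc1-KO value was -1.44 without Stc1-KO replicate 1 (edgeR, adjusted p = 0.00443) and 0.48 without Stc1-KO replicate 2.

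The storage genes were the most abundant members. Fth1 (chr19:9980598-9985098, plus strand) had 2950 and 1890 CPM in Stc1-KO, 4120 and 3910 in Pygo1-KO, 3080 and 2930 in Rlim-KO, and 2380 and 2420 in WT. Both Pygo1-KO libraries stood above every other library, and both Rlim-KO libraries above WT. The Pygo1-KO level was 1.67-fold that of WT (log2 0.74 ± 0.21; edgeR, adjusted p = 0.118), and the Rlim-KO log2 difference was 0.33 ± 0.21 (adjusted p = 0.471). The Pygo1-KO value passed by DESeq2 (adjusted p = 0.0211), with the compared groups alone (edgeR, adjusted p = 0.0129) and without Stc1-KO replicate 1 or 2 (0.00195 and 0.00186). The Rlim-KO value passed in the last 3 of these fits as well (edgeR, adjusted p = 3.8e-07, 0.0351 and 0.0347).

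By genome, both Pygo1-KO libraries had more Fth1 reads of genome 1 than WT and fewer of genome 2, with no call on the share (log2 odds 3.21 ± 1.20; edgeR, adjusted p = 0.189). The log2 odds were 5.26 without Pygo1-KO replicate 1 (edgeR, adjusted p = 6.74e-06) and 1.17 without Pygo1-KO replicate 2 (0.0036). Genome 1 gave 1454 and 1604 CPM in Pygo1-KO against 703 and 715 in WT. Genome 2 gave 257 and 16.7 in Pygo1-KO against 280 and 284 in WT. The genome 2 loss was almost wholly in Pygo1-KO replicate 2, whose genome 1 share was 99% where its neighbours' median was 98.6%. In Pygo1-KO replicate 1 the share was 85% and the neighbours' median 86.8%, against 71.5% for Fth1 in both WT libraries and 74.1 and 74.5% for the neighbours. Pygo1-KO replicate 2 also held 1 Steap1 read and 9 Steap2 reads of genome 2, against 331 and 290 for Steap1 and 1837 and 1784 for Steap2 in WT.

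Ftl1 (chr7:45457944-45459884, minus strand) had 1000 and 1420 CPM in Stc1-KO, 1160 and 1250 in Pygo1-KO, 1210 and 1180 in Rlim-KO, and 1280 and 1410 in WT. Its log2 difference was -0.15, -0.16 and -0.17 in Stc1-KO, Pygo1-KO and Rlim-KO, each ± 0.18 (edgeR, adjusted p = 0.728, 0.657 and 0.676). Ftl1 is uncertain, since it overlaps 2 other annotated genes and near copies take reads, which summed to 15.6 and 16% of the Ftl1 count in Stc1-KO, 14.1 and 14.5% in Pygo1-KO, 14.8 and 15.6% in Rlim-KO, and 13.8 and 13.7% in WT. In Pygo1-KO both libraries lay above WT in Fth1 and below WT in Ftl1. Neither gene was called there, and the difference between the chains was not tested.

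**Figure D4:**
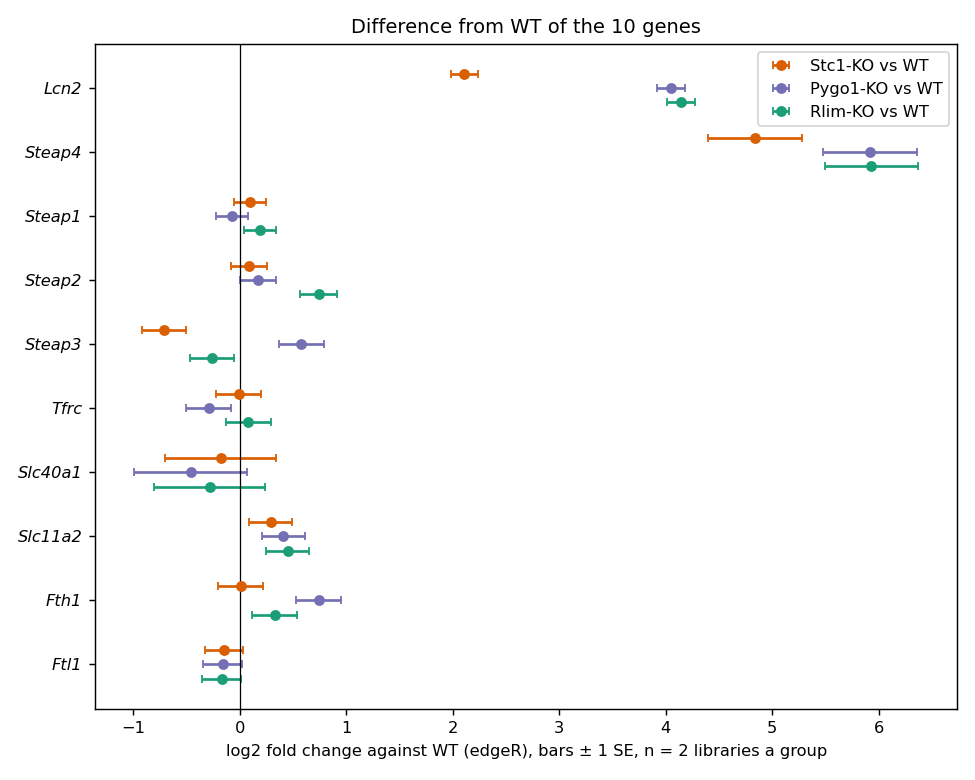
Log2 fold change against WT of the 10 genes for Stc1-KO, Pygo1-KO and Rlim-KO (edgeR), with bars of 1 SE and n = 2 libraries a group. Lcn2 at 2.11, 4.05 and 4.14 and Steap4 at 4.84, 5.92 and 5.93 stand apart, while the other 8 lie between -0.71 and 0.74.

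Beyond the members, 100 genes of iron handling and Lcn2 regulation were listed in 9 groups, of which 88 were measured well enough to test. In Stc1-KO 1 rose and 1 fell, in Pygo1-KO 2 rose and 1 fell, and in Rlim-KO 1 rose and 1 fell, or 2.27%, 3.41% and 2.27% against the backgrounds of 0.577%, 2.35% and 1.4%. In a DESeq2 fit 12.4, 17 and 13.6% of the listed genes were called, against 4.59, 8.99 and 7.23% of all genes. With the compared groups alone 0, 23 and 66.7% were called, against 0, 9.97 and 48.9% of all genes. The median log2 difference of the 88 was -0.02, 0.09 and -0.12, against 0.01, 0.00 and 0.01 over all genes. Without WT replicate 1 or 2 the count was 0 under all 3 labels. Without Stc1-KO replicate 1 it was 28, 33 and 25, or 31.5, 37.1 and 28.1%, against 24, 19.7 and 16.3% of all genes. Without Stc1-KO replicate 2 it was 12, 33 and 25, or 13.5, 37.1 and 28.1%, against 6.51, 19.8 and 16.3% of all genes. Without Rlim-KO replicate 1 or 2 it was 0, 1 and 1, and without Pygo1-KO replicate 1 or 2 it was 2, 3 and 4. These lists were drawn up with results of the data known.

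Of 14 inducers and transcription factors of Lcn2 tested, Cebpd, which encodes a C/EBP transcription factor of the acute phase, rose under all 3 labels. Cebpd had 39.6 and 43.6 CPM in Stc1-KO, 53.4 and 62.3 in Pygo1-KO, 75.5 and 74.4 in Rlim-KO, and 13.8 and 15.5 in WT. The log2 difference was 1.50, 1.98 and 2.35, each ± 0.13 (edgeR, adjusted p = 0.011, 0.00237 and 0.0016). Without WT replicate 1 the calls ended in Stc1-KO, Pygo1-KO and Rlim-KO (edgeR, adjusted p = 0.235, 0.077 and 0.0726), as they did without WT replicate 2 (0.174, 0.0584 and 0.0602). The Stc1-KO call also ended without Rlim-KO replicate 1 or 2 (0.0709 and 0.0711), as it did in a fit of the compared groups only (0.172).

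Nfkb1, the p105 and p50 subunit of NF-kB, rose in Pygo1-KO, at 305 and 294 CPM against 136 and 134 in WT (log2 1.15 ± 0.12; edgeR, adjusted p = 0.0121). The call ended without WT replicate 1 or 2 (0.197 and 0.216) and without Rlim-KO replicate 1 or 2 (0.0638 and 0.0646). In Stc1-KO Nfkb1 had 107 and 88.2 CPM (log2 -0.47; edgeR, adjusted p = 0.163) and in Rlim-KO 174 and 167 (log2 0.34; edgeR, adjusted p = 0.221). The Stc1-KO value passed without Stc1-KO replicate 1 (edgeR, adjusted p = 0.00542), and the Rlim-KO value without Stc1-KO replicate 1 or 2 (0.0298 and 0.0297) and fitted with WT only (5.3e-07). Stat3, Rela and the receptor genes Il6ra, Il6st, Il1r1 and Tlr2 were not called. The cytokine gene Il6 stayed at or under 0.0554 CPM and Il1b at or under 0.0139 CPM in all libraries.

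Of 20 genes of heme synthesis, breakdown and transport, Hmox2, the constitutive heme oxygenase that frees iron from heme, fell under all 3 labels. Hmox2 had 52.7 and 64.7 CPM in Stc1-KO, 77 and 78.5 in Pygo1-KO, 56.9 and 58.7 in Rlim-KO, and 126 and 127 in WT. The log2 difference was -1.11, -0.70 and -1.13, each ± 0.12 (edgeR, adjusted p = 0.0225, 0.0436 and 0.02). Without WT replicate 1 or 2 the adjusted p was 0.284 and 0.322 in Stc1-KO, 0.355 and 0.359 in Pygo1-KO and 0.287 and 0.277 in Rlim-KO (edgeR). Without Rlim-KO replicate 1 or 2 it was 0.121 and 0.123 in Stc1-KO, 0.162 and 0.163 in Pygo1-KO and 0.299 and 0.295 in Rlim-KO. The Pygo1-KO call further ended without Pygo1-KO replicate 1 or 2 (edgeR, adjusted p = 0.119 and 0.128), with upper quartile scaling (0.0553) and with each chromosome scaled to WT (0.0517), and the Stc1-KO call with the compared groups alone (0.244). Hmox1, the inducible heme oxygenase, was not called, with 75 and 85.4 CPM in Stc1-KO, 80.7 and 68 in Pygo1-KO, 85.5 and 83 in Rlim-KO, and 59.1 and 67.2 in WT.

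The other 7 groups of genes, from Lcn2 receptors to iron-sulfur cluster assembly, held 0 called genes under any label in the main edgeR fit. Of their 54 tested genes 11, 13 and 14 had an unadjusted p under 0.05 in Stc1-KO, Pygo1-KO and Rlim-KO. The share of all genes under that limit is not given here, so these counts are not read further. With the compared groups alone edgeR called 0, 16.7 and 69.8% of the genes it tested in these groups, against 0, 9.97 and 48.9% of all genes. DESeq2 called 10.9, 9.26 and 13% of the genes it tested in these groups, against 4.59, 8.99 and 7.23% of all genes. Among the ferroxidases, Cp, which encodes ceruloplasmin, had 279 and 394 CPM in Stc1-KO, 422 and 303 in Pygo1-KO, 359 and 333 in Rlim-KO, and 186 and 163 in WT. All 6 knockout libraries lay above WT, at a log2 difference of 0.95, 1.05 and 0.99, each ± 0.22 (edgeR, adjusted p = 0.128, 0.0631 and 0.0853). Lrp2, the endocytic receptor megalin that binds lipocalin 2, had 724 and 479 CPM in Stc1-KO, 589 and 686 in Pygo1-KO, 536 and 531 in Rlim-KO, and 584 and 571 in WT. Slc22a17, another lipocalin 2 receptor, lay between 17.6 and 28.5 CPM. Aco1, which encodes iron regulatory protein 1, had 79.4 and 74.1 CPM in Pygo1-KO and 79.6 and 80.2 in Rlim-KO against 109 and 108 in WT (edgeR, adjusted p = 0.0689 and 0.105). Of the hepcidin genes, Hamp stayed at or under 0.0275 CPM in all libraries. Heph, which encodes the ferroxidase hephaestin, had 6.73 and 0.546 CPM in Stc1-KO, 0.0252 and 0.0551 in Pygo1-KO, 4.05 and 3.75 in Rlim-KO, and 0.247 and 0.351 in WT, and was not called under any label (edgeR, adjusted p = 0.186, 0.28 and 0.135).

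**Figure D5:**
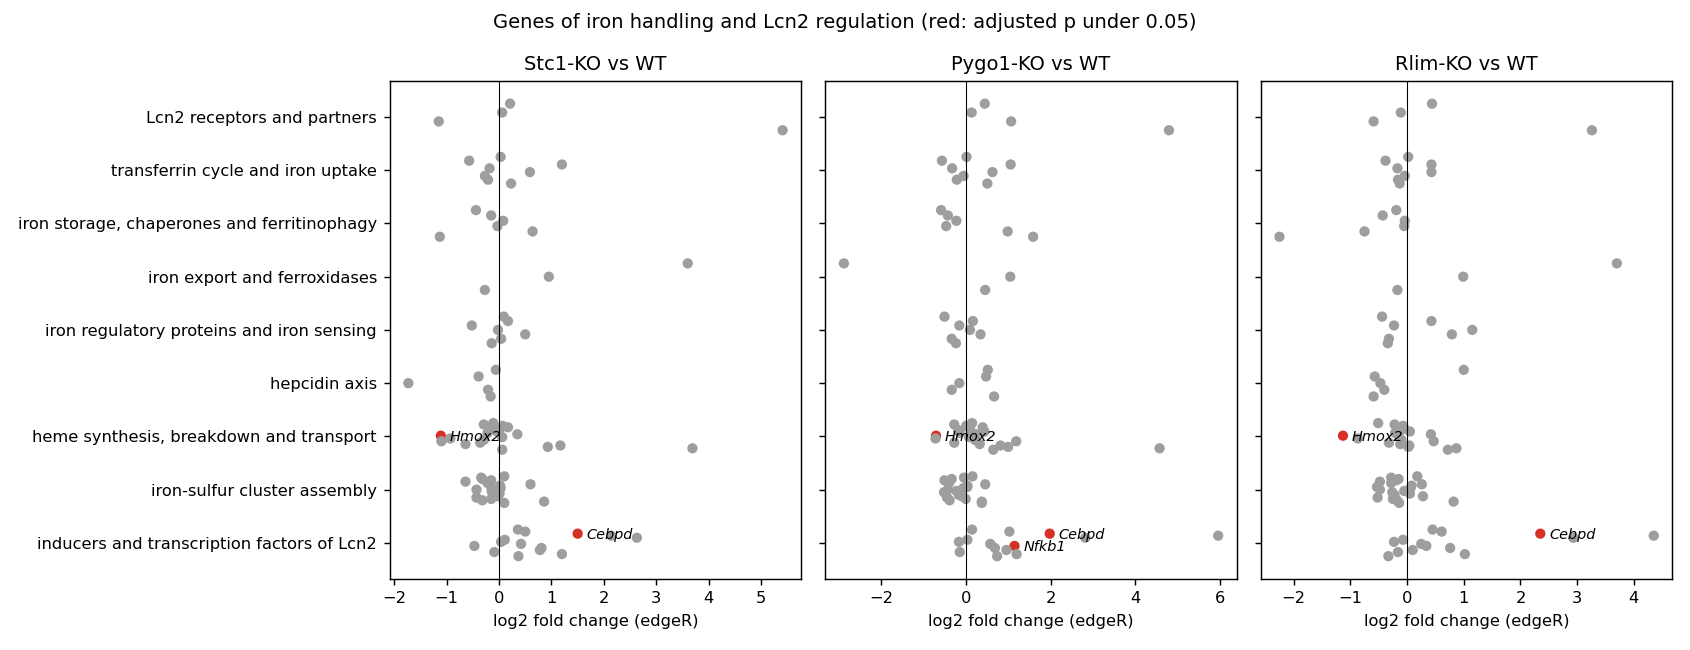
Log2 fold change (edgeR) of the 88 tested genes in 9 groups of iron handling and Lcn2 regulation, for Stc1-KO, Pygo1-KO and Rlim-KO against WT, with 1 point per gene and genes at an adjusted p under 0.05 in red. Cebpd, at 1.50, 1.98 and 2.35, and Hmox2, at -1.11, -0.70 and -1.13, are red in all panels.

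Across the 8 libraries, Lcn2 and Steap4 followed each other on the log2(CPM + 1) scale, with Pearson's r of 0.95, a value that includes the low WT pair of both genes. Of 9865 genes whose mean CPM reached 5, the most alike to Lcn2 were Hjurp (r = 0.989), Fam19a5 (0.986), Fbrsl1 (0.979), Ciz1 (0.976) and Atg16l1 (0.972). The most alike to Steap4 were Diaph1 (r = 0.997), D10Wsu102e (0.986), Ddr1 (0.982), Tnfrsf9 (0.981) and Ammecr1l (0.980). Their ranges were far narrower. Hjurp had 168 and 171 CPM in Stc1-KO, 226 and 209 in Pygo1-KO, 217 and 229 in Rlim-KO, and 141 and 143 in WT. Diaph1 had 111 and 115 CPM in Stc1-KO, 120 and 114 in Pygo1-KO, 117 and 118 in Rlim-KO, and 95.8 in both WT libraries. Tnfrsf9, the costimulatory receptor 4-1BB, was the exception, with 10.5 and 8.43 CPM in Stc1-KO, 14.1 and 6.69 in Pygo1-KO, 15.2 and 13.3 in Rlim-KO, and 1.09 and 1.14 in WT. These correlations rest on 8 libraries of 4 groups, are chosen as the highest of many and carry no test.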

How the data were processed

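RNA was extracted with Trizol and prepared with a TruSeq kit, per the labels' protocols. HISAT2 2.0.5, Cufflinks, featureCounts and mm10 are named in the submitters' processing notes, without a role or order. The authors deposited raw counts per Ensembl gene for all reads, genome 1 reads and genome 2 reads of each library. The tool that split the genomes, the strand setting and the annotation are not given in the sources used here. An aligner run against 1 parent can favour it, so shares were compared between libraries.

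The 10 members, the gene lists, the markers and the tests were chosen with earlier results of these data known. Named genes were the members, the called list genes with the smallest adjusted p (up to 4 a list) and the 5 genes most alike to Lcn2 and to Steap4; genes near the members, the targets, markers and uncalled list genes were named after their values were seen.

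Of 49670 genes, 49411 matched GENCODE M21 (GRCm38). The 259 without a match took no more than 0.0139% of any library. The model was edgeR 4.0.16 on R 4.3.3, using TMM factors, filterByExpr, 1 mean per group over 8 libraries and a quasi-likelihood test. Benjamini-Hochberg adjustment ran over 17839 genes, called at 0.05. RPKM uses the merged exon length. The genome share was tested in edgeR with a term per library and a genome term per group, over 12476 genes that had 20 or more allelic reads (both genomes summed) in all 8 libraries. In 329 genes the 2 genomes summed to more than all reads, and these were left out. The summed level of the kidney epithelial markers is not reported here. Both models were run on simulated data that had the same spread for all genes. The outcome is not reported here and is not used as support for the error rates. Alternatives were other scalings, no filter, DESeq2 1.42.0, the compared groups alone, a replicate term, other read minimums and each library left out. Figures were drawn with matplotlib 3.10.9.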

Additional observations from a re-analysis of the deposited data

Results flagged for a closer look

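Lcn2 stood apart between labels by a test of the difference itself, at a log2 difference of 1.94 for Pygo1-KO against Stc1-KO (edgeR, adjusted p = 0.00439) and -2.03 for Stc1-KO against Rlim-KO (edgeR, adjusted p = 0.0087). The level of Lcn2 in these libraries chose the list, so both p-values carry that choice. Steap3 stood apart at 1.29 for Pygo1-KO against Stc1-KO (edgeR, adjusted p = 0.0423), with the libraries of these labels on opposite sides of WT. Steap3 lay on opposite sides of WT in Pygo1-KO and Rlim-KO as well, by 0.84, a difference that was not called (edgeR, adjusted p = 0.132). It passed by DESeq2 (adjusted p = 0.0156), without a filter (edgeR, 0.0493), in a fit of these labels only (0.0322) and without Stc1-KO replicate 1 or 2 (0.00513 and 0.0051).

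The genome 1 share of Lcn2 moved away from WT in opposite directions, with a difference of group means of -33.27 percentage points between Pygo1-KO and Rlim-KO and -33.16 between Stc1-KO and Rlim-KO. The genome 1 share of Slc11a2 differed likewise by 15.33 percentage points between Pygo1-KO and Rlim-KO, and that of Steap2 by -4.37 between Stc1-KO and Rlim-KO. These 4 differences between labels were not tested.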

How the results depend on the processing

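Counts of called genes moved most with the settings. For Stc1-KO, Pygo1-KO and Rlim-KO against WT (103, 419 and 250) they were 361, 867 and 610 without a filter, 826, 1566 and 1260 by DESeq2, and 0, 1699 and 8340 with the compared groups alone. Between Pygo1-KO and Stc1-KO, Pygo1-KO and Rlim-KO, and Stc1-KO and Rlim-KO (310, 182 and 68) they were 683, 519 and 333 without a filter, 1185, 987 and 776 by DESeq2, and 0, 972 and 12 alone. Changed genome shares (691, 2489 and 1488) became 1403 in Pygo1-KO and 5224 in Rlim-KO alone. With each library left out, the counts ran from 3 to 4484 in Stc1-KO, 8 to 3678 in Pygo1-KO and 3 to 3036 in Rlim-KO. Between labels they ran from 22 to 4087, 7 to 2360 and 2 to 4844, and for shares from 94 to 1101, 974 to 4206 and 0 to 2285. Members called (2 under each label) were 0 in Stc1-KO, 4 in Pygo1-KO and 9 in Rlim-KO with the compared groups alone, and ran from 0 to 5, 1 to 4 and 1 to 5 with a library left out. These counts of members include Lcn2 and Steap4, which chose the list, and are a description. Listed genes called (2, 3 and 2) ran from 0 to 28, 0 to 33 and 0 to 25. A label left with 1 library is assumed to vary like the others.

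The replicate block gave 18, 109 and 26 calls against WT, 96, 38 and 7 between labels, and 385 and 550 changed shares in Stc1-KO and Rlim-KO. It left 1 member called in Stc1-KO, and it ended the calls of Steap3 in Pygo1-KO against Stc1-KO (adjusted p = 0.0773) and of Hmox2 in Stc1-KO, Pygo1-KO and Rlim-KO against WT (0.0615, 0.0779 and 0.0528). Same-numbered libraries correlated between -0.21 and 0.40 in their deviations, which does not settle whether the numbers pair the samples.

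Among values of single genes, 1179 under other settings kept their direction and side of the threshold, 69 lost and 65 gained a call, and 49 changed sign. None of those 49 had been called. Without Stc1-KO replicate 1, some passed with the new sign: Fth1 in Stc1-KO against WT at -0.35 (edgeR, adjusted p = 0.0375), and Slc40a1 at 0.97 in Pygo1-KO against Stc1-KO (0.0181) and -1.16 in Stc1-KO against Rlim-KO (0.00871). The log2 difference of Tfrc in Stc1-KO against WT was 0.04 with upper quartile scaling and 0.09 with each chromosome scaled to WT. Fth1 there was -0.01 without a filter and -0.01 with the replicate block, Ftl1 in Pygo1-KO against Stc1-KO was 0.00 without a filter, and Slc40a1 in Stc1-KO against Rlim-KO was -0.01 with the block. The other sign changes came from leaving out a library. In Stc1-KO against WT the log2 difference then ran from -0.05 to 0.20 for Steap2, -0.36 to 0.26 for Tfrc, -1.44 to 0.48 for Slc40a1, -0.02 to 0.53 for Slc11a2, -0.35 to 0.29 for Fth1 and -0.43 to 0.08 for Ftl1. In Pygo1-KO against WT it ran from -0.30 to 0.12 for Steap1 and -0.07 to 0.36 for Steap2, and in Rlim-KO against WT from 0.00 to 0.18 for Tfrc. In Pygo1-KO against Stc1-KO it ran from -0.39 to 0.03 for Steap1, -0.15 to 0.28 for Steap2, -0.55 to 0.07 for Tfrc, -0.95 to 0.97 for Slc40a1, -0.14 to 0.42 for Slc11a2 and -0.24 to 0.26 for Ftl1. In Pygo1-KO against Rlim-KO it ran from -0.26 to 0.06 for Lcn2, -0.88 to 0.53 for Steap4, -0.44 to 0.03 for Slc40a1, -0.24 to 0.12 for Slc11a2 and -0.05 to 0.06 for Ftl1. In Stc1-KO against Rlim-KO it ran from -0.44 to 0.18 for Tfrc, -1.16 to 0.76 for Slc40a1, -0.47 to 0.09 for Slc11a2 and -0.26 to 0.25 for Ftl1. The log2 odds of genome 1 in Stc1-KO against WT ran from -0.28 to 0.08 for Steap1, -0.46 to 0.13 for Steap3, -0.11 to 0.14 for Tfrc and -0.29 to 1.34 for Slc11a2. In Pygo1-KO against WT they ran from -0.17 to 7.91 for Steap1, -0.33 to 7.72 for Steap2, -0.03 to 0.59 for Slc40a1 and -0.05 to 0.37 for Ftl1. In Rlim-KO against WT they ran from -0.03 to 0.34 for Steap1, -0.32 to 0.23 for Slc40a1 and -0.03 to 0.01 for Ftl1. The cause was not tested.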
